A study of Abies pinsapo with 24 samples.

Results

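Roots of Spanish fir (Abies pinsapo) collected in autumn at the upper edge of the species' belt were compared with roots collected in the same month at its lower edge, by RNA sequencing of 3 trees at each site. All 6 autumn root libraries of the series' 24 libraries were used. Of the 51046 features in the gene table, 28656 had a count in at least one of the 24 libraries, and the 15808 that passed the filter on low counts in these 6 libraries were tested. The Ronda group came from trees numbered 4, 5 and 6 at an altitude of 1700 to 1800 m, and the Yunquera group from trees numbered 1, 2 and 3 at 1100 to 1200 m. Trees of both sites were wild adults of 30 to 50 years in the Sierra de las Nieves of southern Spain, roots were taken in September 2022, and root RNA of both sites was extracted with the same kit. The growth protocol speaks of 6 independent trees, and the design text gives another number of individuals. Each library carries the number of a single tree, and whether roots of several trees were pooled is not stated. Site is the only labelled difference between the groups, so altitude, soil, stand and everything else that goes with the place cannot be told apart.

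Spanish fir is a drought-sensitive conifer left over in a few mountain ranges, and its lower stands meet a longer dry season than its upper ones. Conifer roots take up water and minerals, store starch, and make large amounts of phenolic compounds: phenylalanine is turned into cinnamic acids that feed lignin in the walls and, through chalcone synthase, flavonoids and condensed tannins. Plants that lose water make dehydrins and other LEA proteins, chaperones, and sugars of the raffinose family, for which galactinol synthase makes the galactose donor.

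The 6 libraries held 14494067 to 19273188 counts and 15633 to 19933 features with a count. They carried the marks of root tissue: features named for photosystems and light harvesting took 0.0426% to 0.0732% of the counts of the Ronda roots and 0.0713% to 0.114% of those of the Yunquera roots, against 2.63% to 4.4% in the autumn needles of the same trees. Features whose best hit lies in fungi other than Saccharomyces and Schizosaccharomyces took 0.602%, 1.18% and 2.16% in Ronda trees 4, 5 and 6. They took 0.180%, 2.20% and 0.267% in Yunquera trees 1, 2 and 3, so this share moved with the tree and overlapped between the sites. Most of it in the Ronda trees and in Yunquera tree 2 came from the feature TAR1-A, with a best hit in the yeast Kluyveromyces lactis. TAR1-A overlaps another feature, and had 69544, 179219 and 332435 counts at Ronda and 3271, 289896 and 3687 at Yunquera. The share is therefore no measure of filamentous fungi in the roots. Over 25 features with presence or absence that varies by tree, each of the 6 libraries shared at least 95.7% of its calls with other libraries of its own tree and at most 77.8% with those of any other tree. Taking features that vary by tree favours such a gap, so it is no independent test of the tree labels.

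The whole profile separated the sites on the first principal component of log2(CPM + 0.5), which held 34.5% of the variance. CPM are library-size-scaled counts, with sizes corrected by the TMM method. Ronda trees 4, 5 and 6 scored 78.2, 60.9 and 37.8, and Yunquera trees 1, 2 and 3 scored -70.0, -14.5 and -92.4. The Yunquera trees were further from each other than the Ronda trees: the median SD between trees was 0.462 log2 units at Ronda and 0.638 at Yunquera (n = 3 each). Pearson correlations between libraries, across features, were 0.883 to 0.914 within Ronda, 0.858 to 0.898 within Yunquera and 0.816 to 0.913 between the sites, so some pairs from different sites were as alike as pairs from one site. The plot of the first components shows the same: the second component, with 26.1% of the variance, set Yunquera tree 1 apart from the other 5 libraries.

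**Figure D1:**
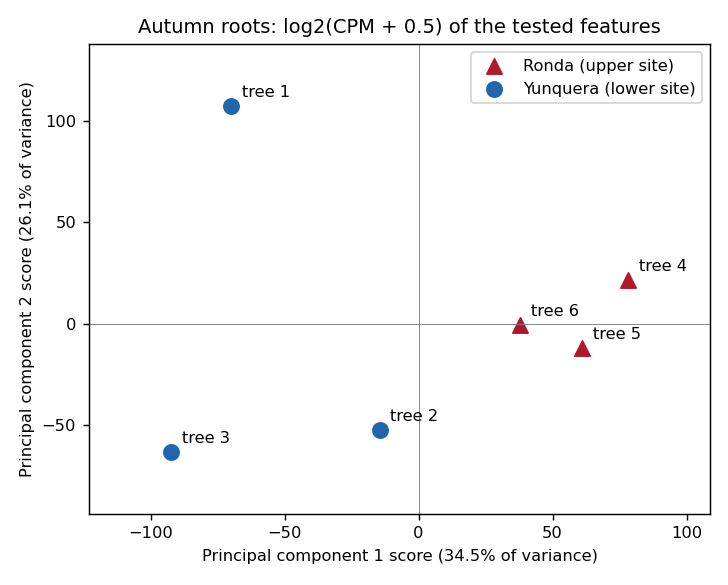
Scores of the 6 autumn root libraries on the first principal component (x axis) and the second (y axis) of log2(CPM + 0.5) over 15808 features. Triangles are Ronda trees and circles Yunquera trees. All 3 Ronda trees lie to the right of the 3 Yunquera trees, and Yunquera tree 1 lies far above the rest.

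No feature passed the test at this spread. edgeR's quasi-likelihood test on the 6 libraries called 0 of 15808 features at an adjusted p under 0.05, the smallest adjusted p being 0.0957, while 1615 features (10.2%) had an unadjusted p under 0.05, 777 higher at Ronda (4.92%) and 838 lower (5.3%). DESeq2 on the same 6 libraries called 564 (3.57%), 283 higher at Ronda (1.79%) and 281 lower (1.78%). edgeR on the 12 autumn libraries, in which roots and needles share one estimate of the spread, called 256 of 18364 for roots (1.39%), 115 higher at Ronda (0.626%) and 141 lower (0.768%). The biological coefficient of variation was 0.693 in the root libraries and 0.403 in the autumn needle libraries, so the shared estimate lies under the roots' own. Each tree also entered the 12-library fit with both a root and a needle library, without a term for the tree. Of the 256 features, 223 were also DESeq2 calls with the same sign, and the libraries of the sites did not overlap for any of the 256. Fits of all 12 root libraries as labelled and of 11 root libraries, both seasons, called 6 of 17899 (0.0335%, 5 higher at 0.0279% and 1 lower at 0.00559%) and 6 of 18538 (0.0324%, 5 higher at 0.027% and 1 lower at 0.00539%). These took autumn and spring roots of a tree as independent. With the tree as a random effect, limma-voom on the 11 root libraries called 0 higher and 0 lower. Over all features, 2814 (17.8%) did not overlap between the sites, 1501 of them higher at Ronda (9.5%) and 1313 lower (8.31%). The count of the 12-library fit turned on single roots: without Ronda tree 4, 5 or 6 it called 16, 9 and 136 features higher and 8, 6 and 92 lower, and without Yunquera tree 1, 2 or 3 it called 232, 329 and 8 higher and 435, 344 and 13 lower. Calls below are therefore those of the 12-library fit or of DESeq2, as named beside each value, and no feature described passed the 6-library test.

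The median log2 fold change (Ronda over Yunquera) was -0.01, the median absolute one 0.51, and the median standard error 0.60. A difference of at least 1 log2 unit was found for 3967 features, 2213 higher and 1754 lower at Ronda. Names below are those of each feature's best hit in another species, so roles are background from that species, mostly Arabidopsis thaliana, and near-identical copies of a family may share reads.

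Among features whose groups did not overlap, with a mean of 5 CPM or more at the higher site and a difference of 1 log2 unit or more, the 12 with the smallest unadjusted p held 9 lower and 3 higher at Ronda. All 12 were called by DESeq2 and 10 by the 12-library fit. The clearest was a homolog of ROOT HAIR DEFECTIVE 3 (At1g72960, Gene_85068), a GTPase family that shapes the endoplasmic reticulum and is needed for root hair growth in Arabidopsis. It had 0.871, 0.758 and 2.55 CPM in Ronda roots, against 347, 299 and 179 CPM in Yunquera roots. Its log2 fold change was -7.62 (SE 0.67, unadjusted p = 6.06e-06, adjusted p = 0.0957 by edgeR on 6 libraries, 6.26e-04 on the 12 autumn libraries and 7.73e-36 by DESeq2). No Ronda tree came near a Yunquera tree, and the same gap stood in the needles of these trees, at a mean of 0.636 CPM in Ronda needles and 135 CPM in Yunquera needles in autumn, and in spring roots, at 0.858 and 85.8 CPM.

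Of the same 12 features, LECRK43, CML25 and GASA2 were also low at Ronda. LECRK43, a lectin receptor kinase of the cell surface, had 0.435, 0.808 and 0.290 CPM at Ronda and 90.4, 21.6 and 61.8 CPM at Yunquera (log2 fold change -6.80, SE 0.76; adjusted p = 0.00679 on the 12 autumn libraries by edgeR). CML25 (Gene_13644), a calmodulin-like calcium sensor, had 6.04, 4.14 and 6.03 CPM at Ronda and 104, 38.3 and 161 CPM at Yunquera (-4.23, SE 0.59; adjusted p = 0.0137 in the same fit). GASA2 (Gene_33154), a small gibberellin-regulated secreted protein, had 58.5, 35.0 and 41.5 CPM at Ronda and 478, 293 and 680 CPM at Yunquera (-3.43, SE 0.42). For each of the 3 the lowest Yunquera tree was several-fold above the highest Ronda tree, but GASA2 missed the threshold of the 12-library fit (adjusted p = 0.0552) and passed by DESeq2 alone (adjusted p = 9.37e-11).

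FRO2 (Gene_61422), the root ferric reductase that frees iron for uptake in Arabidopsis, was also lower at Ronda in the 12-library fit (adjusted p = 0.0292 by edgeR). It had 19.2, 10.4 and 14.3 CPM at Ronda and 80.3, 93.9 and 75.1 CPM at Yunquera, a log2 fold change of -2.5 (SE 0.35). The trees of each site lay close together for this gene. In the autumn needles its means were 30.2 CPM at Ronda and 34.9 CPM at Yunquera, with libraries that overlapped. UGT85A24 (Gene_24929), a sugar transferase of iridoid glycosides in its source species, had counts of 0, 0 and 2 at Ronda and 12.3, 9.94 and 18.7 CPM at Yunquera. The remaining features low at Ronda were a GOLS1 feature, described with the sugars, and the unannotated Gene_3717 (3.81, 4.75 and 11.7 CPM at Ronda, 782, 220 and 852 CPM at Yunquera) and Gene_6850 (7.67, 14.8 and 14.0 CPM at Ronda, 675, 120 and 997 CPM at Yunquera).

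The 3 features of this set that stood higher at Ronda were a transporter, a kinase and a cell-surface protein. At5g07050 (Gene_15256), a WAT1-related transporter of the plant drug and metabolite family, had 12.5, 18.5 and 18.6 CPM at Ronda and 1.16, 1.68 and 1.71 CPM at Yunquera (log2 fold change 3.44, SE 0.48). STY13 (Gene_347), a serine/threonine kinase, had 140, 150 and 129 CPM at Ronda and 28.2, 44.5 and 34.4 CPM at Yunquera (1.97, SE 0.29; adjusted p = 0.0139 on the 12 autumn libraries by edgeR). Its trees differed little within a site, and it was above Yunquera in every Ronda library of autumn needles and spring roots too. At4g27520 (Gene_15522), an early nodulin-like protein of the copper-protein fold, had 7.18, 7.98 and 20.7 CPM at Ronda and no count in the 3 Yunquera roots, which makes it at least 180-fold higher at Ronda when 3 counts over the group are allowed for.

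**Figure D2:**
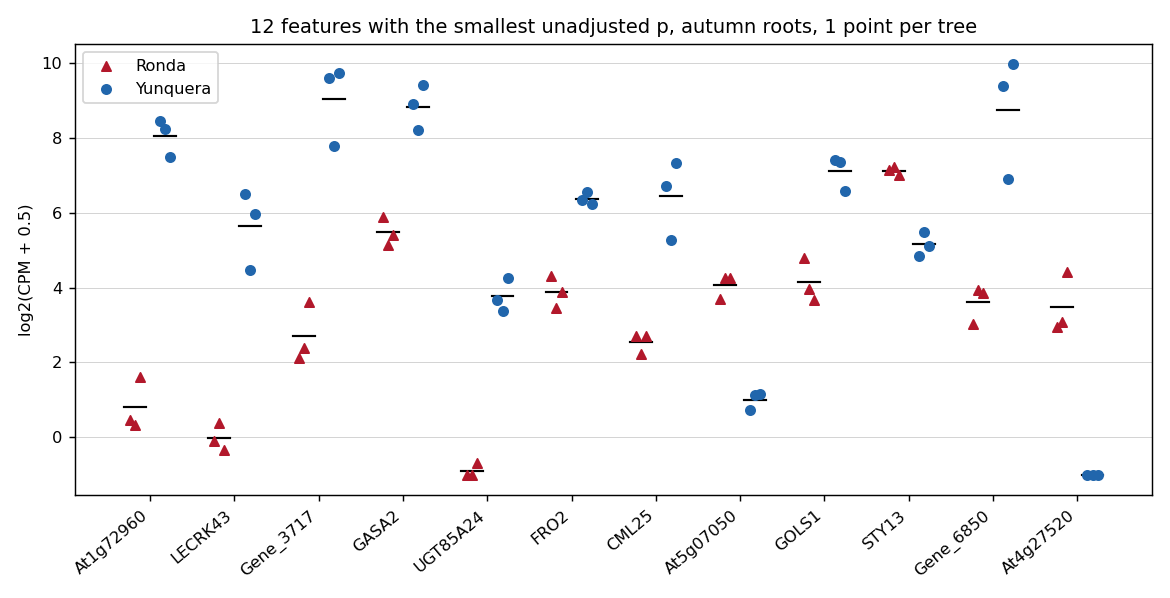
log2(CPM + 0.5) of the 12 features with the smallest unadjusted p (x axis, by name of the best hit or by feature number), 1 point per tree, with triangles for Ronda, circles for Yunquera and bars for the means of 3 trees. The groups are apart for every feature shown, which the choice of features required. At1g72960 and LECRK43 are near the bottom of the scale at Ronda, and At4g27520 is at its lowest value, no count, in all 3 Yunquera trees.

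Flavonoid and tannin genes stood above Yunquera in the Ronda roots more often than any other list. Of 86 members tested, 33 were higher and 2 lower at Ronda at an unadjusted p under 0.05 (all features 4.92% and 5.3%). Of the 86, 31 lay wholly above the Yunquera trees and 3 wholly below (all features 9.5% and 8.31%). The median log2 fold change was 1.16 against -0.01 over all features. edgeR on 6 libraries called 0 of the 86. DESeq2 called 21 higher at Ronda and 0 lower (all features 1.79% and 1.78%). The 12-library fit called 8 of 108 higher and 0 lower (all features 0.626% and 0.768%). Summed over the list, the level was 8691, 17420 and 7257 CPM in Ronda trees 4, 5 and 6, against 5015, 4660 and 4376 CPM in Yunquera trees 1, 2 and 3, so every Ronda tree was above every Yunquera tree and tree 5 was the highest by far. Without tree 5, 23 members were higher and 3 lower at an unadjusted p under 0.05, and the median was 0.87. In bulk roots more cells of a type and more RNA per cell cannot be told apart.

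The pattern was found at several steps of the pathway, the first enzyme among them, but not clearly at every step. Chalcone isomerases summed to 46.4, 40.5 and 13.4 CPM at Ronda and 40.3, 10.1 and 6.15 CPM at Yunquera, with overlap. Flavonol synthases summed to 257, 449 and 235 CPM at Ronda and 295, 139 and 153 CPM at Yunquera, also with overlap. At an unadjusted p under 0.05, 1 of 2 isomerases and 3 of 7 flavonol synthases were higher and 0 lower. Of 14 chalcone synthases tested, which make the flavonoid skeleton, 9 were higher at Ronda at an unadjusted p under 0.05 and 0 lower, with a median of 3.02. The one with the highest mean CPM, CHS (Gene_2996), had 1459, 3120 and 936 CPM at Ronda and 540, 538 and 1007 CPM at Yunquera, and its groups overlapped (1.40, SE 0.52). A second CHS (Gene_21623) had 27.5, 228 and 28.8 CPM at Ronda and 1.21, 2.42 and 0.858 CPM at Yunquera (5.98, SE 1.08; adjusted p = 0.0406 on the 12 autumn libraries by edgeR). CSF7 (Gene_144), chalcone synthase 7, had 16.7, 150 and 13.4 CPM at Ronda and 1.16, 2.48 and 1.00 CPM at Yunquera (5.28, SE 1.13; adjusted p = 0.0384 in the same fit). DESeq2 gave CSF7 no adjusted p, and without single libraries its adjusted p by edgeR in the 12-library fit reached 0.123. In each of these 3 features tree 5 was the highest library.

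Many enzymes that decorate and reduce the skeleton lay the same way. Of 8 dihydroflavonol reductases, 2 were higher and 0 lower at an unadjusted p under 0.05. Of 12 flavonoid hydroxylases, which add the hydroxyl groups of the B ring, 8 were higher and 1 lower at an unadjusted p under 0.05. CYP75B137 (Gene_80871) had 304, 912 and 327 CPM at Ronda and 117, 108 and 128 CPM at Yunquera (2.13, SE 0.48; adjusted p = 0.0424 on the 12 autumn libraries by edgeR), while another CYP75B137 (Gene_29419) had 40.8, 41.5 and 51.1 CPM at Ronda and 70.7, 81.6 and 110 CPM at Yunquera (-0.97, SE 0.30). DFR (Gene_2861), dihydroflavonol reductase, had 139, 1153 and 110 CPM at Ronda and 51.6, 64.0 and 56.2 CPM at Yunquera (3.03, SE 0.92), so trees 4 and 6 were moderately above the Yunquera level and tree 5 far above. LDOX (Gene_3134), which makes the anthocyanidins, had 64.5, 128 and 51.9 CPM at Ronda and 5.49, 11 and 4.22 CPM at Yunquera (3.56, SE 0.55; adjusted p = 2.06e-07 by DESeq2 and 0.135 on the 12 autumn libraries).

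The last steps to condensed tannins were mixed. Anthocyanidin reductase makes the epicatechin units of tannins, and the largest gap was in ANR (Gene_4541), with 43.3, 170 and 16.5 CPM at Ronda and 0, 1.07 and 0.858 CPM at Yunquera (6.90, SE 1.41; adjusted p = 0.0325 on the 12 autumn libraries by edgeR). Of the 50 features named anthocyanidin reductase, 26 were tested. Among the 26, 4 were higher and 1 lower at an unadjusted p under 0.05, and the median was 0.15. The summed levels of all 50 overlapped, at 558, 988 and 651 CPM at Ronda and 459, 657 and 486 CPM at Yunquera. Leucoanthocyanidin reductases, which make the catechin units, summed to 276, 421 and 403 CPM at Ronda and 349, 374 and 384 CPM at Yunquera, although 3 of the 5 were higher at an unadjusted p under 0.05. MYB5 (Gene_19940), a factor that steers tannin synthesis in several species, had 15, 66.3 and 23.9 CPM at Ronda and 2.66, 0.738 and 0.214 CPM at Yunquera (4.84, SE 1.04; adjusted p = 0.0331 in the 12-library fit). The heat map of the list shows tree 5 as the strongest column and both other Ronda trees above the Yunquera trees in most rows.

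**Figure D3:**
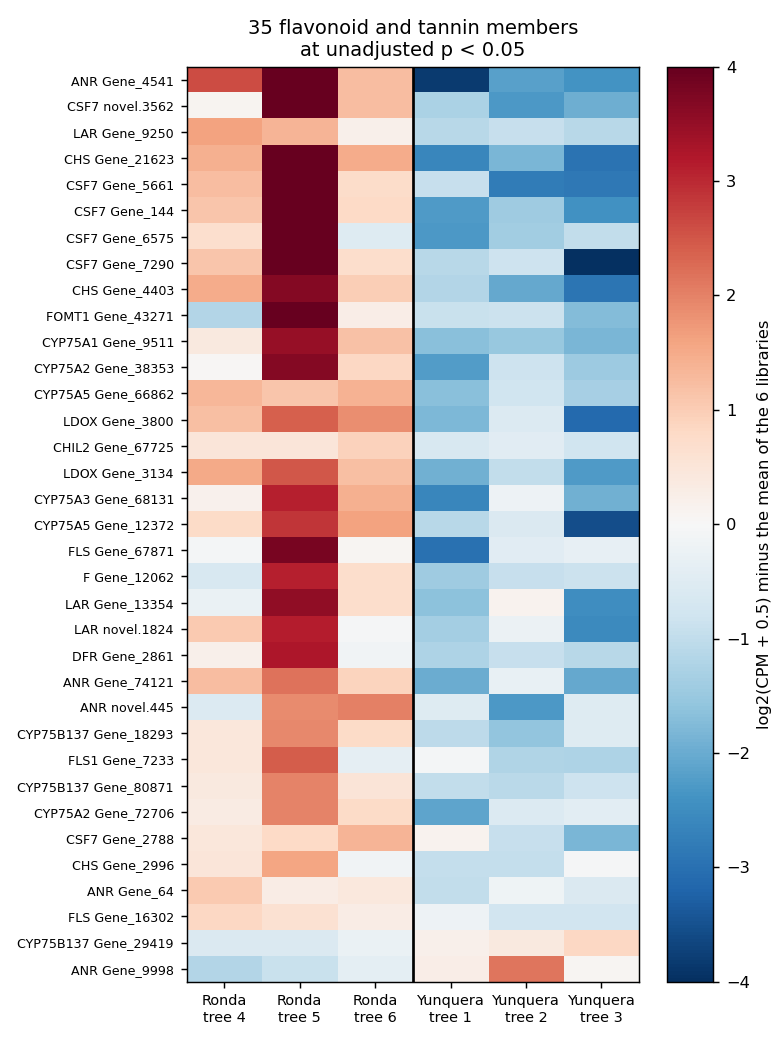
The 35 flavonoid and tannin members at an unadjusted p under 0.05 (rows, sorted by fold change) in the 6 autumn root libraries (columns). Colour is log2(CPM + 0.5) minus the mean of the 6 libraries, red above and blue below. In the 33 upper rows tree 5 of Ronda is red throughout, trees 4 and 6 are red or near the mean in most rows, and the Yunquera trees are mostly blue; the 2 lowest rows are reversed.

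Phenylpropanoid and lignin genes, upstream of the flavonoids, followed with a median of 1.34. At an unadjusted p under 0.05, 17 of 55 members were higher and 3 lower (all features 4.92% and 5.3%). DESeq2 called 7, all higher at Ronda (all features 1.79%). The 12-library fit called 0 members of the list. Its summed level was 5421, 6959 and 3165 CPM at Ronda and 2819, 2369 and 3372 CPM at Yunquera, with overlap. PAL (Gene_5883), phenylalanine ammonia-lyase at the entry of the pathway, had 1163, 1352 and 1296 CPM at Ronda and 978, 732 and 732 CPM at Yunquera, without overlap but with a small difference (0.64, SE 0.29, unadjusted p = 0.0584). CCOAOMT (Gene_3563), which methylates lignin precursors, had 1206, 989 and 218 CPM at Ronda and 262, 197 and 105 CPM at Yunquera (2.10, SE 0.66; adjusted p = 0.0425 by DESeq2). Tree 6 was within the Yunquera range for it. CCR1 (Gene_3908), cinnamoyl-CoA reductase, had 26.2, 99.4 and 14.4 CPM at Ronda and 8.32, 1.01 and 2.29 CPM at Yunquera (3.58, SE 1.03; adjusted p = 0.00513 by DESeq2). LAC4 (Gene_53987), a laccase that joins lignin units, had 57.9, 3.74 and 10.2 CPM at Ronda and 3.70, 2.48 and 2.79 CPM at Yunquera, with tree 4 far above the rest (3.00, SE 0.99). Pinoresinol reductases of lignan synthesis summed to 116, 252 and 76.1 CPM at Ronda and 35.9, 34.0 and 25.1 CPM at Yunquera. Without tree 5, 10 members of the list were higher and 2 lower, and the median was 0.60, and without Yunquera tree 2, 10 were higher and 3 lower.

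Genes of wall growth had a median of 0.69. At an unadjusted p under 0.05, 18 of 93 members were higher and 5 lower at Ronda (all features 4.92% and 5.3%). Those lower were thus near the share over all features. DESeq2 called 9 higher and 2 lower (all features 1.79% and 1.78%). The 12-library fit called 0 of 143 higher and 1 lower (all features 0.626% and 0.768%). Without Yunquera tree 3, 14 were higher and 1 lower, and without Yunquera tree 1, 26 were higher and 8 lower. The summed level of the list was 4468, 3669 and 3400 CPM at Ronda and 2451, 2384 and 3465 CPM at Yunquera, with overlap. PLY1 (Gene_112), the most abundant member tested, overlapped too (0.35, SE 0.35). FLA8 (Gene_18537), a fasciclin-like arabinogalactan protein of the cell surface, had 117, 87.5 and 45.4 CPM at Ronda and 18.8, 12.6 and 11.5 CPM at Yunquera (2.54, SE 0.44; adjusted p = 6.09e-05 by DESeq2). XTH9 (Gene_18492), which cuts and rejoins xyloglucan, had 115, 90 and 118 CPM at Ronda and 22.3, 13 and 3.29 CPM at Yunquera (3.06, SE 0.65; adjusted p = 3.59e-04 by DESeq2). Both were clear of the Yunquera range in every Ronda tree. XTH27 (Gene_6078), of the same enzyme family, lay the other way, with 10.7, 38.0 and 5.68 CPM at Ronda and 39.8, 68.2 and 417 CPM at Yunquera (-3.27, SE 1.09). CESA8 (Gene_67466), a cellulose synthase of secondary walls, had 245, 31.0 and 20.3 CPM at Ronda and 29.8, 8.19 and 8.58 CPM at Yunquera, so only tree 4 was far above the others.

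Terpenoid and resin genes, which make the oleoresin of firs, had a median of 1.35. At an unadjusted p under 0.05, 4 of 27 members were higher and 0 lower (all features 4.92% and 5.3%). Without Ronda tree 5 the median was 0.07, with 1 higher and 1 lower, and without Ronda tree 4, 9 were higher. The summed level of the list was 848, 2196 and 881 CPM at Ronda and 933, 803 and 1020 CPM at Yunquera, with overlap. GGR (Gene_7039), the most abundant member tested, had 180, 127 and 162 CPM at Ronda and 229, 157 and 247 CPM at Yunquera, also with overlap (-0.43, SE 0.29). The pinene synthase ag3 (Gene_8892), named after its grand fir counterpart, had 7.73, 128 and 1.39 CPM at Ronda and 0.751, 0.940 and 0.143 CPM at Yunquera (6.20, SE 1.75; adjusted p = 1.64e-04 by DESeq2). Tree 5 made most of that difference. Class III peroxidases of the wall had 3 of 23 members higher and 1 lower at an unadjusted p under 0.05, those lower being near the share over all features. PER12 (Gene_41261) had 54.6, 16.8 and 13.1 CPM at Ronda and 1.79, 1.61 and 6.72 CPM at Yunquera (3.06, SE 0.84). Another feature named PER12, the most abundant of the peroxidases tested, overlapped between the sites. It had 505, 151 and 185 CPM at Ronda and 187, 350.5 and 107 CPM at Yunquera (0.38, SE 0.59). PER17 (Gene_22531) had 24.3, 23.2 and 15.3 CPM at Ronda and 62.9, 52.4 and 292 CPM at Yunquera (-2.70, SE 0.71).

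Dehydrins and LEA proteins, which protect cells that lose water, lay lower at Ronda. Of 24 members tested, a list taken from names and protein domains, 9 were lower and 2 higher at an unadjusted p under 0.05 (all features 5.3% and 4.92%). The median log2 fold change was -1.04. DESeq2 called 6 lower and 1 higher (all features 1.78% and 1.79%), and the 12-library fit 2 of 26 lower (all features 0.768%). LEA14-A (Gene_4579) had 199, 144 and 370 CPM at Ronda and 3584, 1274 and 3840 CPM at Yunquera, a log2 fold change of -3.61 (SE 0.59; adjusted p = 0.0302 on the 12 autumn libraries by edgeR and 1.28e-07 by DESeq2). The lowest Yunquera tree was more than 3 times the highest Ronda tree. A feature with a dehydrin domain and no best hit (Gene_3530) had 57.6, 58.1 and 137 CPM at Ronda and 1500, 167 and 1707 CPM at Yunquera (-3.74, SE 0.87; adjusted p = 0.0442 on the 12 autumn libraries).

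The most abundant dehydrin (Gene_5437) had 3023, 769 and 4361 CPM at Ronda and 17830, 4235 and 12570 CPM at Yunquera, so that tree 6 of Ronda lay just above tree 2 of Yunquera (-2.09, SE 0.76, unadjusted p = 0.0276). It is the main part of the list's summed level, which was 6092, 2538 and 8542 CPM at Ronda and 28380, 7739 and 22040 CPM at Yunquera, with overlap. At5g17165 (Gene_4052), another LEA protein, was one of the pair on the opposite side, at 12.3, 42.4 and 3.02 CPM at Ronda and 2.14, 0.739 and 1.14 CPM at Yunquera (3.83, SE 1.02). The list also holds NHL26 (Gene_9654), a membrane protein of sugar export that shares the LEA domain, with 35.4, 50.9 and 107 CPM at Ronda and 209, 157 and 336 CPM at Yunquera. Without Yunquera tree 1 the median of the list was -0.42, with 8 members lower and 2 higher, and without Yunquera tree 3, 5 were lower and 2 higher.

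Chaperones had a smaller median difference, of -0.40. Of 100 heat shock features, 13 were lower and 4 higher at an unadjusted p under 0.05 (all features 5.3% and 4.92%), and 21 lay wholly below the Yunquera trees and 4 wholly above (all features 8.31% and 9.5%). The summed level of all 219 features of the list, tested or not, was 10860, 9917 and 10340 CPM at Ronda and 15540, 12540 and 14210 CPM at Yunquera, without overlap. The 12-library fit called 2 of 106 lower (all features 0.768%), and DESeq2 called 3 lower and 2 higher, close to the 1.78% and 1.79% of all features. HSP81-1 (Gene_36313), a cytosolic HSP90, had 77, 96.3 and 107 CPM at Ronda and 251, 193 and 167 CPM at Yunquera (-1.12, SE 0.29; adjusted p = 0.0442 on the 12 autumn libraries by edgeR). HSFA1 (Gene_20809), a master heat stress factor, had 110, 86.7 and 119 CPM at Ronda and 178, 190 and 236 CPM at Yunquera (-0.93, SE 0.27; adjusted p = 0.0496 in the same fit).

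Of the chaperone families, the HSP70 and HSP90 group held 69 features, 22 of them tested. The 69 summed to 3273, 3341 and 3392 CPM at Ronda and 4985, 4892 and 5872 CPM at Yunquera, with trees of each site close together. Small heat shock proteins summed to 706, 516 and 633 CPM at Ronda and 1836, 643 and 851 CPM at Yunquera. Of 30 tested, 0 were higher and 4 lower at an unadjusted p under 0.05 (all features 4.92% and 5.3%). The most abundant member of the list, DNAJ1 (Gene_3146), did not follow, at 3153, 2858 and 2849 CPM at Ronda and 3319, 3227 and 2434 CPM at Yunquera (-0.02, SE 0.31). HSFB4 (Gene_44045), a heat stress factor active in root development in Arabidopsis, was on the opposite side, at 36.9, 7.43 and 12.8 CPM at Ronda and 1.56, 3.09 and 3.00 CPM at Yunquera (2.90, SE 0.72; adjusted p = 0.00508 by DESeq2).

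Enzymes of the raffinose family did not move as one group. Of 7 galactinol synthases, 4 were lower and 1 higher at Ronda at an unadjusted p under 0.05 (all features 5.3% and 4.92%). One GOLS1 feature had 27.1, 15.2 and 12.1 CPM at Ronda and 169, 164 and 95.6 CPM at Yunquera (-2.98, SE 0.43; adjusted p = 0.0302 on the 12 autumn libraries by edgeR). GOLS2 (Gene_10499) had 23.2, 17.9 and 11.9 CPM at Ronda and 334, 162 and 79.0 CPM at Yunquera (-3.44, SE 0.59; adjusted p = 0.0313). A second GOLS1 (Gene_3454) lay the other way, at 1388, 605 and 2139 CPM at Ronda and 61.8, 274 and 1.57 CPM at Yunquera (3.61, SE 1.43; adjusted p = 0.0412 by DESeq2 and 0.135 on the 12 autumn libraries). Another GOLS1 (Gene_3136), with the highest mean CPM of the 7, overlapped between the sites and followed single trees, with 4492, 439 and 6.79 CPM at Ronda and 157, 500 and 0.858 CPM at Yunquera (2.91, SE 2.17). All 9 galactinol synthases, tested or not, summed to 5960, 1094 and 2183 CPM at Ronda and 769, 1169 and 464 CPM at Yunquera, with overlap.

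The step after galactinol is raffinose synthase, and RFS2 (Gene_8014) had 904, 440 and 577 CPM at Ronda and 640, 2012 and 4949 CPM at Yunquera, with overlap (-1.98, SE 0.72). In the 12-library fit, 2 of 7 features named for trehalose phosphate enzymes were lower at Ronda and 0 higher (all features 0.768% and 0.626%). TPS6 (Gene_11901) had 236, 156 and 281 CPM at Ronda and 679, 523 and 972 CPM at Yunquera (-1.69, SE 0.37; adjusted p = 0.0349 by edgeR). TPS9 (Gene_844) had 7.73, 5.20 and 7.19 CPM at Ronda and 39.6, 13.4 and 44.1 CPM at Yunquera (-2.27, SE 0.53; adjusted p = 0.0406). Both lay wholly below the Yunquera trees, and both did so in the autumn needles as well.

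Of 12 starch synthesis features, 3 were higher and 1 lower at Ronda at an unadjusted p under 0.05 (all features 4.92% and 5.3%). Their median was 0.80. AGPS1 (Gene_5687), the small subunit of ADP-glucose pyrophosphorylase, which commits sugar to starch, had 795, 778 and 812 CPM at Ronda and 298, 449 and 178 CPM at Yunquera (1.37, SE 0.38; adjusted p = 0.0468 on the 12 autumn libraries by edgeR and 0.0458 by DESeq2). Its 3 Ronda trees were nearly alike. GBSS1 (Gene_39210), which makes amylose, had 574, 768 and 722 CPM at Ronda and 124, 418 and 36.1 CPM at Yunquera (1.84, SE 0.78, unadjusted p = 0.0492). Summed over all 34 starch synthesis features, tested or not, the level was 2195, 2317 and 2488 CPM at Ronda and 670, 1629 and 610 CPM at Yunquera, without overlap. One large subunit, AGPL1 (Gene_13043), went against this at low level in the 12-library fit (adjusted p = 0.0325 by edgeR), with 0, 0.101 and 0.580 CPM at Ronda and 7.05, 1.95 and 4.58 CPM at Yunquera. Amylases, which break starch down, had 0 of 10 tested members higher and 1 lower (all features 4.92% and 5.3%), with a median of -0.61. Their sums overlapped, at 468, 739 and 409 CPM at Ronda and 658, 444 and 1040 CPM at Yunquera.

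The shares and medians of all 27 lists by name and of the 4 by organism are set side by side in the plot of gene lists, where dotted lines mark the shares over all features. Near the lower end stood the photosystem and carbon fixation lists, which were drawn up as marks of green tissue. At an unadjusted p under 0.05, 4 of 11 carbon fixation features and 5 of 31 photosystem features were lower at Ronda. Neither list had a member higher at that p (all features 5.3% lower and 4.92% higher). RCA1 (Gene_3029), rubisco activase, had 20.1, 20 and 36.0 CPM at Ronda and 135, 77.4 and 124 CPM at Yunquera (-2.15, SE 0.39; adjusted p = 0.0468 on the 12 autumn libraries by edgeR). RBCS-1A (Gene_76988), the rubisco small subunit, had 183, 165 and 234 CPM at Ronda and 468, 317 and 472 CPM at Yunquera (-1.11, SE 0.30). In autumn needles RCA1 averaged 7898 CPM at Ronda and 7775 CPM at Yunquera, far above its root levels, whereas RBCS-1A averaged 179 CPM in Ronda needles and 170 CPM in Yunquera needles, no more than in roots. The remaining carbon fixation features lower at that p, RUBB (Gene_84510) and RBCS (Gene_3191), were not rich in needles either. They averaged 9.83 and 35.2 CPM in Ronda needles and 16.3 and 39.1 CPM in Yunquera needles. Their root means were 8.96 and 37.65 CPM at Ronda and 34.5 and 83.2 CPM at Yunquera. The part of green cells in the root results was not tested. The count of photosystem features lower at Ronda was 8 without Ronda tree 6 and 9 without Yunquera tree 2. It was 4 without Ronda tree 4, Ronda tree 5 or Yunquera tree 3. Without Yunquera tree 1 it was 5, and the median was -0.33 against -0.83 with all trees.

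**Figure D4:**
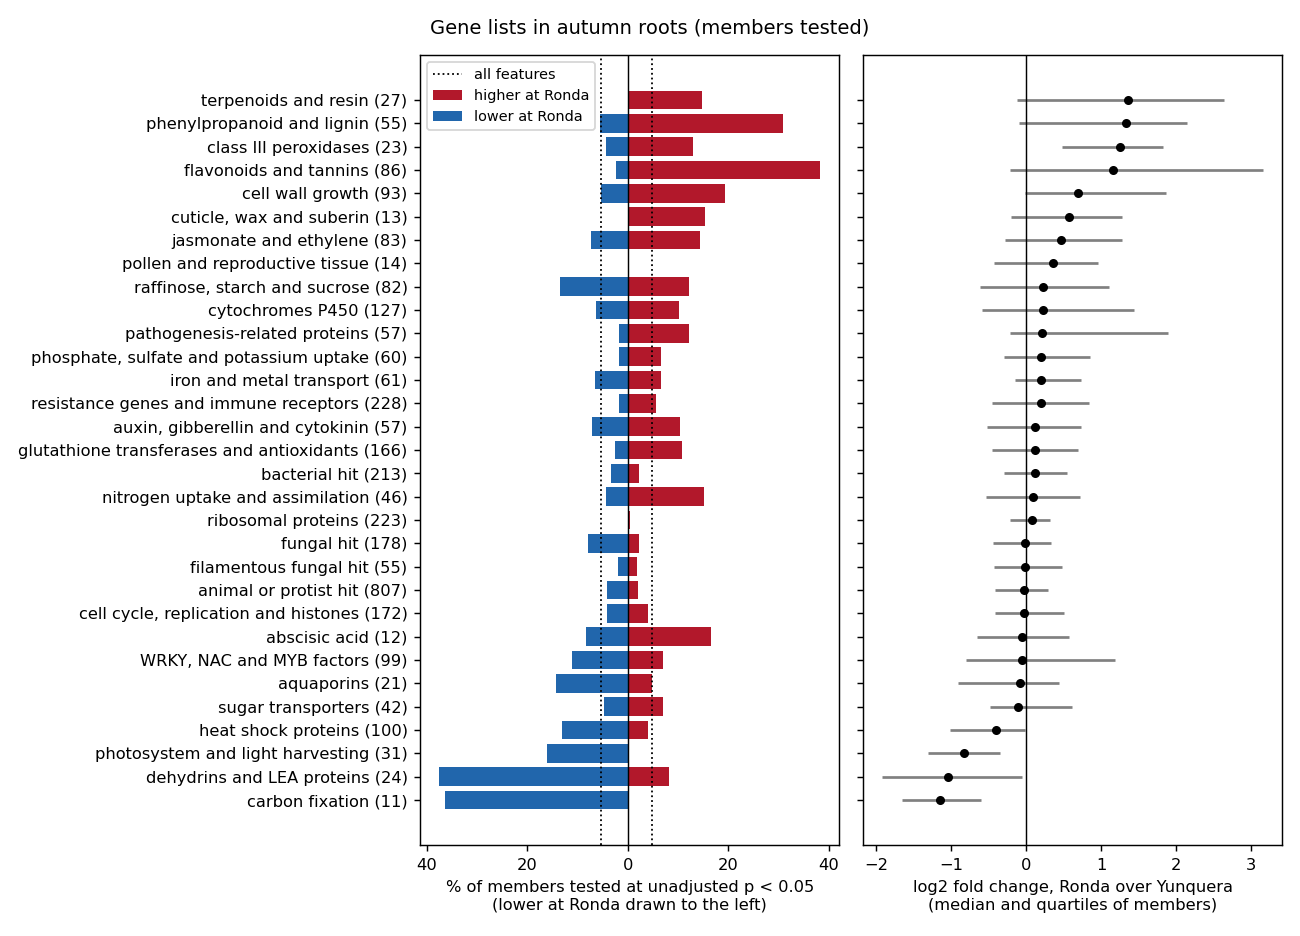
Left, the percentage of each list's tested members at an unadjusted p under 0.05, higher at Ronda to the right and lower to the left, with the same for all features as dotted lines. Right, the median log2 fold change (Ronda over Yunquera) of the members, with quartiles as lines. Flavonoid, phenylpropanoid and wall lists reach furthest above the dotted line, and dehydrin and carbon fixation lists furthest below it.

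Nutrient genes were mixed. AMT1-1 (Gene_69089), a high-affinity ammonium transporter, was lower at Ronda in the 12-library fit (adjusted p = 0.0442 by edgeR), with 33.1, 43.2 and 36.4 CPM at Ronda and 113, 135 and 458 CPM at Yunquera (-2.65, SE 0.58). Other nitrogen genes lay higher. AAP8 (Gene_58887), an amino acid permease, had 48.7, 14.3 and 6.96 CPM at Ronda and 3.12, 1.68 and 0.715 CPM at Yunquera (3.66, SE 0.91; adjusted p = 0.00178 by DESeq2). GS1-1 (Gene_3282), the cytosolic glutamine synthetase, had 1322, 1696 and 782 CPM at Ronda and 665, 650 and 692 CPM at Yunquera (0.92, SE 0.35). Of the 46 nitrogen features, 7 were higher and 2 lower at an unadjusted p under 0.05 (all features 4.92% and 5.3%). Without Ronda tree 5, 4 were higher and 2 lower.

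Iron and metal genes held 4 members on each side out of 61 at an unadjusted p under 0.05. This was near the shares over all features (4.92% higher and 5.3% lower). There were 9 higher without Yunquera tree 1, and 2 without Ronda tree 5 or without Yunquera tree 3. Beside FRO2, ISU1 (Gene_6110), the scaffold of iron-sulfur cluster assembly, was lower at Ronda in the 12-library fit (adjusted p = 0.0396 by edgeR), with 92.7, 87.4 and 69.2 CPM at Ronda and 489, 157 and 374 CPM at Yunquera. FIT (Gene_60068), the transcription factor that turns on FRO2 in Arabidopsis, had 1.2, 47.7 and 3.65 CPM at Ronda and 1.62, 1.14 and 0.572 CPM at Yunquera, and overlapped. Metallothionein EMB30, the most abundant member, ranged from 4950 to 9042 CPM at Ronda and from 422 to 10670 CPM at Yunquera (0.53, SE 0.93). Among aquaporins, 3 of 21 were lower and 1 higher at an unadjusted p under 0.05 (all features 5.3% and 4.92%). Without Ronda tree 4, 0 were lower and 0 higher. The most abundant, PIP1-2 (Gene_3332), had 1639, 1481 and 1420 CPM at Ronda and 1881, 2135 and 4460 CPM at Yunquera (-0.90, SE 0.41).

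Resistance genes and immune receptors had 13 of 228 members higher and 4 lower at Ronda at an unadjusted p under 0.05 (all features 4.92% and 5.3%), with a median of 0.19. That count turned on single trees: without Yunquera tree 2, 34 of 241 were higher and 3 lower with a median of 0.76, and without Yunquera tree 1, 10 were higher and 11 lower with a median of -0.05. The 12-library fit called 4 of 278 higher and 1 lower, near its share over all features (1.39%). At5g04720 (Gene_29502), a disease resistance protein, had 4.08, 3.54 and 8.53 CPM at Ronda and no count at Yunquera, at least 81.1-fold higher at Ronda when 3 counts over the group are allowed for. It had no count in the Yunquera autumn needles and spring roots either, where the Ronda libraries held 174 and 831 counts in all. HSPRO2 (Gene_70098), a nematode resistance-like protein, was lower at Ronda, with 36.5, 36.6 and 23.7 CPM at Ronda and 334, 280 and 1409 CPM at Yunquera (-4.38, SE 0.73; adjusted p = 0.0212 on the 12 autumn libraries by edgeR). SUMM2 (Gene_75900), another resistance protein, had 2.5, 9.85 and 5.74 CPM at Ronda and counts of 0, 0 and 2 at Yunquera (adjusted p = 0.0325 in the same fit). On the opposite side, ROQ1 (Gene_34932), an intracellular immune receptor, had 1.63, 3.74 and 4.46 CPM at Ronda and 18.2, 34.2 and 21.2 CPM at Yunquera (-2.90, SE 0.55; adjusted p = 6.34e-05 by DESeq2 and 0.0510 on the 12 autumn libraries).

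In all, 9 features had at least 1 CPM in each Ronda root and no count in any Yunquera root, and 0 the other way round. Of the 9, 6 had a best hit, among them At4g27520, XTH32 (Gene_32969), a glycerol phosphate acyltransferase named RAM2 (Gene_65105) that serves mycorrhizal symbiosis in legumes, and VCS (Gene_44693), an mRNA decapping protein. RAM2 had 2.88, 1.72 and 1.80 CPM at Ronda, at least 32.8-fold higher than Yunquera when 3 counts over the group are allowed for. Outside autumn roots the Yunquera libraries held counts of 8 of the 9, such as 7 counts of VCS in autumn needles and 152 in spring roots. At5g04720 (Gene_29502) was the exception, with none in either.

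Regulators outside the metabolic lists also reached the threshold of the 12-library fit. LBD12 (Gene_14131), a LOB domain factor of a family that shapes organ boundaries and lateral roots, had 131, 260 and 14.3 CPM at Ronda and 1.21, 1.14 and 0.286 CPM at Yunquera (7.24, SE 1.2; adjusted p = 0.0266 by edgeR). It was clear of the Yunquera trees in every Ronda tree, though the Ronda trees themselves lay far apart. GT-3A (Gene_13639), a trihelix factor, had 33.6, 70.4 and 26.4 CPM at Ronda and 3.58, 5.37 and 4.72 CPM at Yunquera (3.25, SE 0.50; adjusted p = 0.0195). It was also 1 of the 6 features called for autumn roots when 11 root libraries of both seasons were fitted by edgeR. With the tree as a random effect, limma-voom on those 11 libraries called 0. HIPP23 (Gene_69323), an isoprenylated metal-binding protein, had 0.707, 1.36 and 0.174 CPM at Ronda and 84.8, 28.8 and 312 CPM at Yunquera (-7.54, SE 1.2; adjusted p = 0.0349). ERF010 (Gene_10785), an ethylene-response factor, had 167, 168 and 211 CPM at Ronda and 580, 287 and 552 CPM at Yunquera (-1.38, SE 0.35; adjusted p = 0.0368). FTSZ2-1 (Gene_13325), which divides plastids, lay the other way, with 38.6, 38.0 and 32.2 CPM at Ronda and 9.13, 14.8 and 12.2 CPM at Yunquera (1.59, SE 0.35; adjusted p = 0.0195).

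Ribosomal proteins had 1 of 223 higher and 0 lower at an unadjusted p under 0.05 (all features 4.92% and 5.3%), with a median of 0.07. Without Yunquera tree 1 they had 30 of 226 higher and 1 lower, with a median of 0.43. Cell cycle, replication and histone genes had 7 of 172 on each side, under the shares over all features, and 18 higher and 7 lower without Yunquera tree 1. MYB3R1 (Gene_76899), a cell cycle factor, was lower at Ronda in the 12-library fit, with 14.3, 11.7 and 13.5 CPM at Ronda and 47.2, 51.6 and 114 CPM at Yunquera (-2.43, SE 0.43). Pathogenesis-related proteins had 7 of 57 higher and 1 lower (all features 4.92% and 5.3%), with 13 higher without Ronda tree 6 and 5 without Ronda tree 5 or Yunquera tree 1. Def1, a defensin and the most abundant of them, had 1108, 6177 and 4787 CPM at Ronda and 16990, 3822 and 6619 CPM at Yunquera, with overlap. Glutathione transferases and antioxidants had 18 of 166 higher and 4 lower (all features 4.92% and 5.3%), with 9 higher without Ronda tree 5 and 30 without Yunquera tree 1. Among them was GSTF9 (Gene_3764) at 54.0, 118 and 55.2 CPM at Ronda and 16.3, 12.5 and 9.51 CPM at Yunquera (2.57, SE 0.45; adjusted p = 0.0384 on the 12 autumn libraries by edgeR). The abscisic acid receptor PYL8 (Gene_4677) had 139, 164 and 189 CPM at Ronda and 417, 243 and 299 CPM at Yunquera (-0.96, SE 0.30, unadjusted p = 0.0149 by edgeR). Of 12 abscisic acid genes tested, 2 were higher and 1 lower at an unadjusted p under 0.05 (all features 4.92% and 5.3%).

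The site difference of the roots was then set beside that of other libraries of the same trees, which are new libraries but not new trees. Of the 254 features called for roots in the 12-library fit with a count in autumn needles, 165 (65.0%) lay apart between the sites in the same direction there, against 23.9% of all features tested. That fit also used the needles for its spread. Of 563 DESeq2 calls, which used no needle library, 299 (53.1%) did so in autumn needles and 147 (26.1%) in spring roots, against 23.9% and 12.1% of all features tested. In autumn needles alone edgeR called 542 of 17293 features for site (3.13%). In spring roots, with 2 Ronda libraries after the library labelled replicate 2, in which photosystem features took 3.03% of the counts, was left out, it called 0 of 17412, with 692 at an unadjusted p under 0.05 (3.97%).

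The flavonoid list carried over in part. In autumn needles 36 of 105 members were higher and 12 lower at Ronda at an unadjusted p under 0.05 (all features 2094 higher and 2000 lower of 17293), 4 were called higher and 2 lower by edgeR, and the median was 0.59. In spring roots 3 of 95 were higher and 3 lower (all features 399 higher and 293 lower of 17412), and the median was -0.19. Wall genes had 40 of 134 higher and 8 lower in autumn needles, and 6 of 132 higher and 7 lower in spring roots. The dehydrin and LEA list had medians of -0.17 in autumn needles and -0.54 in spring roots. Whether the site difference itself changed with season was tested across features: edgeR called 0 of 18538 for site by season in roots, with 744 at an unadjusted p under 0.05 (4.01%), and DESeq2 called 77.

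Between organs, edgeR called 6 of 18364 features (0.0327%) for a site difference that differed between autumn needles and autumn roots, with 1087 at an unadjusted p under 0.05 (5.92%). With the tree as a block it called 0, without Yunquera needle tree 1 or any one Ronda root 0, and DESeq2 called 123. The galactinol synthases GOLS2 (Gene_10499) and the low GOLS1 feature were on opposite sides in the organs. GOLS2 had 22.5, 63.0 and 61.4 CPM in Ronda needles and 2.81, 1.09 and 2.56 CPM in Yunquera needles, scaled over 24 libraries, whereas Ronda roots were below Yunquera roots. The same GOLS1 feature had 10.8, 30.5 and 28 CPM in Ronda needles and 2.62, 0.910 and 1.61 CPM in Yunquera needles. In needles alone both were higher at Ronda (log2 fold change 4.48 with adjusted p = 0.0214, and 3.73 with adjusted p = 0.0297, by edgeR). The plot of these 6 features shows the crossing, and CML25 (Gene_13644) shares it, with 98.3, 65.8 and 59.7 CPM in Ronda needles and 36.9, 21.9 and 30.9 CPM in Yunquera needles.

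**Figure D5:**
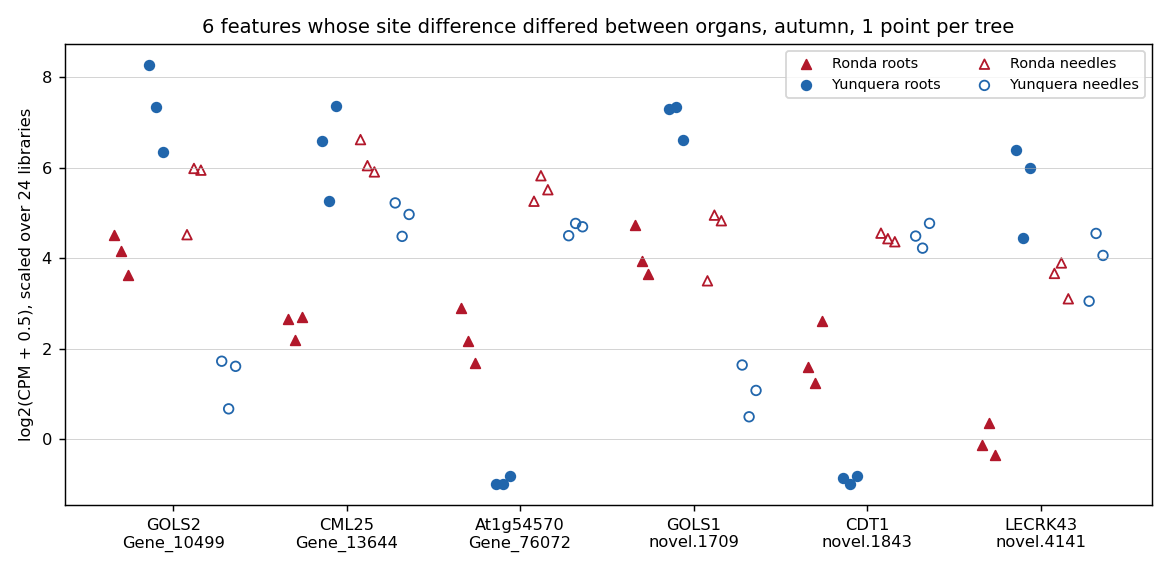
log2(CPM + 0.5), scaled over 24 libraries, of the 6 features whose site difference differed between organs in autumn by edgeR, 1 point per tree. Filled symbols are roots and open symbols needles, triangles Ronda and circles Yunquera. GOLS2, CML25 and GOLS1 are lower at Ronda in roots and higher at Ronda in needles, and CDT1 and LECRK43 overlap between the sites in needles.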

How the data were processed

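Counts per feature were the values deposited by the authors. The submitters' processing notes name CASAVA, HISAT2 and featureCounts, and the genome build is not given in the sources used here. Per the labels, some libraries were directional and others not, without saying which, so reads of overlapping or antisense features cannot be told apart. Features needed a count of about 10 in 3 libraries and 15 in all (filterByExpr). The sites were compared with edgeR 4.0.16 (quasi-likelihood, TMM scaling, Benjamini-Hochberg adjustment, threshold 0.05) in R 4.3.3 with limma 3.58.1, and with DESeq2 1.42.0 as an alternative. A fit of the 12 autumn libraries was a further alternative. Scripts were tested on simulated data. CPM are not divided by length and compare libraries, not genes. Sums over a list or family take in all its features, tested or not.

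Named features had groups that did not overlap, a mean of 5 CPM or more at the higher site and a difference of 1 log2 unit or more. Since edgeR called none in 6 libraries, the 12 with the smallest p were named, with list members. The most abundant member of several lists and some features that the rule gave in the 12-library fit were named too. Taking names from that fit was a step added after seeing the data. Further list members and features without counts at one site were chosen after their values were seen. The members and lists were chosen with earlier results of these data known. P-values measure the spread between these trees. Replicate numbers differ in tree between the sites and pair no samples there. Within a site they name a tree, so comparisons of organs or seasons were also fitted with the tree as a block. The on or off calls of 25 features go with these tree names, but features that vary by tree favour that outcome. Limits from a count of 0 cover counting error only.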

Additional observations from a re-analysis of the deposited data

Results flagged for a closer look

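The site difference in autumn differed between needles and roots for 6 features in edgeR's test of that difference, given here as the needle difference minus the root difference in log2 units. For the galactinol synthases it was 7.926 for GOLS2 (Gene_10499, adjusted p = 0.0172) and 6.712 for GOLS1 (adjusted p = 0.0172). For the calcium sensor CML25 (Gene_13644) it was 5.528 (adjusted p = 0.0245), and for the receptor kinase LECRK43 6.355 (adjusted p = 0.0374). The acyltransferase-like At1g54570 (Gene_76072) had -6.447 and CDT1, a small cadmium tolerance protein, -6.16 (adjusted p = 0.0374 each by edgeR). Both of these had at most 1 count in any Yunquera root, so the size of their fitted difference depends on the prior count. With the tree as a block, 0 features were called.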

How the results depend on the processing

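Of edgeR's counts on the 6 libraries, 0 called higher became 283 by DESeq2, 5 with all 12 root libraries as labelled, 5 with 11 root libraries and 115 with the 12 autumn libraries, and 0 to 1 when single trees were left out. The 0 called lower became 281, 1, 1 and 141 under the same alternatives and 1 with no filter, and stayed 0 to 0 without single trees. With the tree as a random effect, limma-voom on the 11 root libraries called 0 higher and 0 lower. The 1615 features at an unadjusted p under 0.05 became 3369 with the 12 autumn libraries and 1112 to 2319 without single trees. List members called went to 156 by DESeq2 and 53 with the 12 autumn libraries, and were 0 to 0 without single trees. In the 12-library fit, counts without single libraries, added after seeing the data, were 8 to 329 higher and 6 to 435 lower, with 49 and 63 without Yunquera needle tree 1. For site by season, DESeq2 called 77 with 1172 at an unadjusted p under 0.05, and leaving out trees gave 0 calls and 543 to 1290 features at that unadjusted p, against 744 with all. For site by organ, the 6 calls became 123 by DESeq2, 0 with the tree as a block and 0 to 22 without single libraries, with 840 to 1847 at an unadjusted p under 0.05. The replicate block gave 0 calls and 1274 features at an unadjusted p under 0.05 for site, and 0 calls for season with 615. Gene values kept their direction and side of the threshold in 1022 cases, passed it in 94 and changed sign without a call in 18. List medians moved by more than their spread in 27 of the cases, against 465 that did not. Without features of other organisms, the lists by organism have no value. Low counts limit features near the 3 counts that a count of 0 allows.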
